A study of Mus musculus with 3 samples.

Results

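The 122 promoter positions described here belong to the odorant receptor genes of mouse chromosome 9, out of 1085 named positions in all. They are the rows on chromosome 9 whose gene name occurs once in the deposited table of promoter positions. Of its 130 rows on this chromosome, 8 were left out. These were 4 rows of the genes Olfr874 and Olfr145, which have 2 rows each, 3 rows of unannotated pseudogenes and 1 further row. All positions are in build mm9. They form 2 clusters. The first holds 32 members below 25 Mb, from 18624299 (Olfr828) to 20138953 (Olfr18). The other holds 90 members between 37 and 41 Mb, from 37579366 (Olfr875) to 39993543 (Olfr986), and no member lies outside both. Neighbouring members lie a median of 38.5 kb apart below 25 Mb and 22.1 kb apart at 37 to 41 Mb. In all, 83 members are on the plus strand. By name, 120 of the 122 matched a RefSeq gene, and all 120 are on chromosome 9. RefSeq lists 119 of them as protein-coding and 1, Olfr908, as a transcribed pseudogene.

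The 5′ ends of receptor transcripts were mapped with RLM-RACE. This method removes the cap of intact mRNA and ligates an RNA oligonucleotide in its place. Degenerate primers against receptor coding sequence then primed reverse transcription, and the amplified product was hybridised to tiling arrays. The Stringent group, 1 array, carried a product of nested PCR. The High Coverage group carried products of a PCR that was not nested, on 2 arrays called HC1 and HC2 below. Each sample came from the pooled olfactory epithelium of 5 adult mice (C57/Bl6, 6 to 8 weeks old). The arrays are the only replicates, so their number limits the precision and no test between the groups was made. Intervals given with shares are exact Clopper-Pearson intervals at 95% and cover counting error over members only.

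Odorant receptors are G protein-coupled receptors of the olfactory sensory neurons, and each neuron expresses very few of them. Their genes lie in tandem clusters. A typical gene has a coding sequence in a single exon, with one or more noncoding exons upstream, so the promoter can lie kilobases before the coding sequence. Mouse receptors are divided into an older class I and a larger class II, to which those of chromosome 9 belong. The MOR nomenclature groups receptors into subfamilies by protein similarity. It is given for the receptors among the RefSeq synonyms and was added here after the array values had been seen.

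As examples from the cluster below 25 Mb, the 250 bases before the RefSeq transcript start are printed for 5 receptors. They are the members of that cluster whose RefSeq model starts before the coding start and whose gene spans 3 to 7 kb. The sequences are from RefSeq on build GRCm38.p6, run 5′ to 3′ in the direction of transcription, and were not placed against the mm9 positions of the arrays. Capitals mark TAATTA or TAATTG or TAATGA, core forms bound by homeodomain proteins, or TATAAA, the TATA box form, on either strand. The homeodomain forms can overlap each other.
Olfr860: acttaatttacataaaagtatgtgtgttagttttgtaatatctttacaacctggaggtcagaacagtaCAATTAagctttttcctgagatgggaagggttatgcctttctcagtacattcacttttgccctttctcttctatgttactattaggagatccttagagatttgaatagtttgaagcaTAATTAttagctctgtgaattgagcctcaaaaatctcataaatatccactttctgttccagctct
Olfr58: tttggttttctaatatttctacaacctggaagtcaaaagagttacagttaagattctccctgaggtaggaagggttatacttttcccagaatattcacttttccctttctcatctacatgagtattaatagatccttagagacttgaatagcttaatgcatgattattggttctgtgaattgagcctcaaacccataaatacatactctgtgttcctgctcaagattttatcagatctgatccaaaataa
Olfr868: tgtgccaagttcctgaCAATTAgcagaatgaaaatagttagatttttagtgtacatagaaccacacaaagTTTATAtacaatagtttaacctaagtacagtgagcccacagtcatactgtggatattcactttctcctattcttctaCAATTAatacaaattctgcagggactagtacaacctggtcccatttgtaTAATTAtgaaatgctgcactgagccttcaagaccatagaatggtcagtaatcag
Olfr39: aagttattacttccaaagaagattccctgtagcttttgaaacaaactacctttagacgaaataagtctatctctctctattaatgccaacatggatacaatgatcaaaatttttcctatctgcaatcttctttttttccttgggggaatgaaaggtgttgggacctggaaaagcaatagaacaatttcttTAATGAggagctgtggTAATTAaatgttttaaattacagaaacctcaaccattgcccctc
Olfr77: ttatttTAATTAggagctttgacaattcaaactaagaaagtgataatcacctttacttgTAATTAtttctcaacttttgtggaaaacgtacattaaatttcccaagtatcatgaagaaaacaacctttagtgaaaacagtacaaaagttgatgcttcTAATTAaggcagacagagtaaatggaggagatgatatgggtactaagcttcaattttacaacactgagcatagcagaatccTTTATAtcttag
The windows are chr9:19849748-19849997 on the minus strand for Olfr860, and on the plus strand chr9:19780033-19780282 for Olfr58, chr9:20098376-20098625 for Olfr868, chr9:20282101-20282350 for Olfr39 and chr9:19916979-19917228 for Olfr77. Olfr860 and Olfr868 had a called region on all 3 arrays, Olfr58 on Stringent and HC2, and Olfr39 and Olfr77 on Stringent alone. Olfr860 and Olfr58, both of subfamily MOR146, were identical at 183 of 250 bases after global alignment, or 73.2%. The other 9 pairs of these windows reached 57.2% to 63.2%. Olfr860 held 2 homeodomain forms, Olfr868 3, Olfr39 2, Olfr77 3 and Olfr58 none of these letters. TATAAA was found in Olfr868 and in Olfr77, where it began 12 bases before the start. The windows chosen in the same way at 37 to 41 Mb were not aligned with these or with each other. Olfr920 had an A+T content of 53.2% and none of the letters searched. Olfr976 had 51.6%, no homeodomain form and 5 matches of TATAAA. Olfr921 had 65.2%, 1 homeodomain form and 1 TATAAA. The 5 printed windows had 64.0% to 68.8%.

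RefSeq gave windows for 103 members. For 63 of the 104 windows the model begins at the ATG of the coding sequence, so only the 41 other windows were used. Their upstream 250 bases had a median A+T content of 65.6%, against 63.8% in 262 such windows of receptors on all chromosomes and 47.6% in all 32851 RefSeq windows. At least 1 of the homeodomain forms was present in 65.9% of the 41 windows, 55.7% of the 262 and 18.04% of all. TATAAA was present in 34.1%, 31.3% and 12.4%. CCCNNGGG, a core form bound by Olf1/EBF factors, was present in 4.88%, 7.25% and 11.8%. These are matches of letters in a window, not sites. Where a model starts only shortly before the coding sequence, its window need not be the promoter, and this was not checked.

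The signal at a position was read as the highest MAT score within 100 bp. MAT standardises each probe by its sequence and combines probes over a short stretch. Its score, labelled here as natural log scale, is built from these standardised values and was not read as a fold change. A percentile gives the rank of that score among all scored probes of the same array. Regions are those the authors called per array, at score thresholds of 2.52 on Stringent, 2.53 on HC1 and 2.99 on HC2. Those thresholds stand for unlike MAT p-values, 1.75e-09, 1.72e-06 and 2.97e-07, so shares of called regions are not at a like cutoff. All 122 members had scored probes, with a median of 38 probes and a range of 14 to 41. Markers of the tissue were not checked, since no annotation of this build was used.

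On Stringent, 89 of the 122 members (73.0%, interval 64.2 to 80.6) had a called region within 100 bp. Over all 1085 named positions of the series it was 61.7%. On HC1 there were 45, or 36.9% (28.3 to 46.1), against 36.4% of all positions. On HC2 there were 62, or 50.8% (41.6 to 60.0), against 43.6%. The chromosome 9 share was thus close to that of the series on HC1 and above it on Stringent, where the other 963 positions had 60.2%. The sources used here do not say how the positions were picked. Positions chosen on one of these arrays would by themselves raise the share on it. Members with a Stringent region scored between 2.54 and 22.9 there, with a median of 12.9. Those without one scored between -0.207 and 2.25, with a median of 1.18. On High Coverage, a member could have a called region though its score within 100 bp stayed below the threshold. Olfr905 scored 0.366 on HC2 and Olfr910 0.561 on HC1, each with a region there. Olfr935, with a region on all 3 arrays, scored 1.52 on HC1 and 0.916 on HC2.

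**Figure D1:**
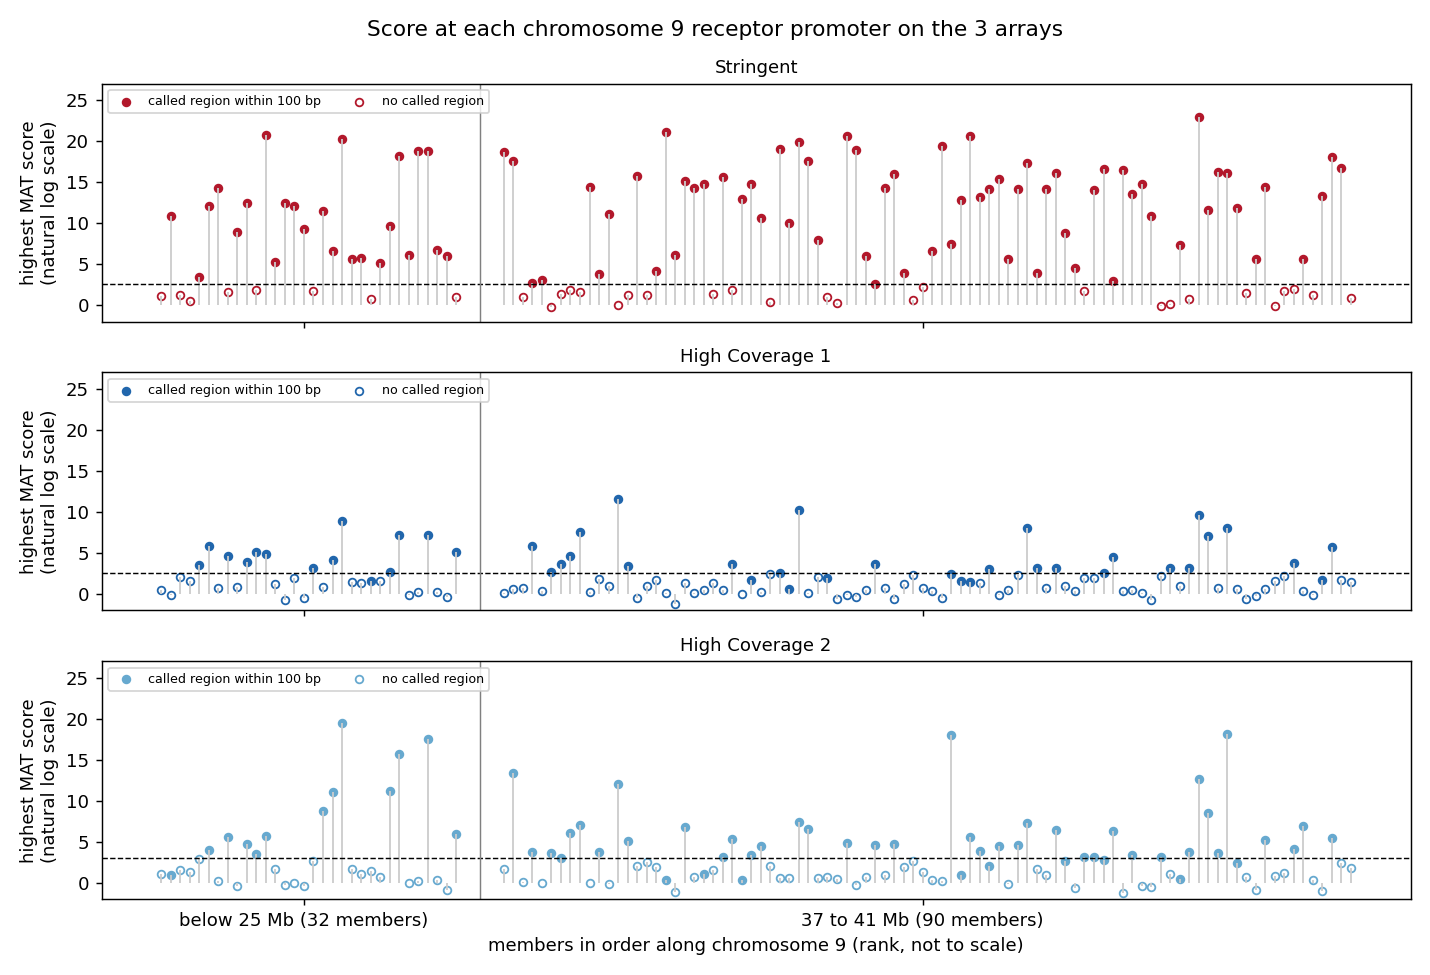
Highest MAT score (natural log scale) within 100 bp of each member, in order along chromosome 9, on Stringent (top), High Coverage 1 and High Coverage 2. Filled points had a called region, 89, 45 and 62 of 122, the dashed line is the authors' threshold, and the vertical line separates the 2 clusters.

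Across the arrays, 24 members had a region on all 3, or 19.7%, against 17.3% of all positions. At the 95th percentile, a like cutoff added after the data had been seen, 77 members (63.1%) reached it on Stringent, against 43.9% of all scored positions. On HC1 it was 41 members (33.6%), against 34.5%, and on HC2 49 members (40.2%), against 35.1%. Of the called regions, a further 41 members had one on 2 arrays, or 33.6%, against 25.8% of all positions. On 1 array it was 42 members, or 34.4%, against 38.1%. The remaining 15 had none, or 12.3%, against 18.8% of all positions. Stringent alone had a region at 36 members, or 29.5%, against 28.3% of all positions. High Coverage alone had one at 18 members, or 14.8%, against 19.5%. Stringent and HC2 without HC1 was a frequent combination, with 24 members, or 19.7%, against 12.4% of all positions. Stringent and HC1 without HC2 occurred at 5, or 4.10%, near the 3.59% of all positions. Leaving out HC1, 48 members had a region on both remaining arrays, against 24 on all 3.

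On Stringent the signal began at the named position and ran with transcription. Positions set from regions of that array would by themselves give such an onset, and this was not tested. On Stringent the members' median score was -1.05 between 100 and 50 bp upstream. It was 3.29 over the 50 bp after the position and 7.66 over the 50 bp after those. It stayed at 5.74 in the bin that starts 150 bp downstream and had fallen to 0.42 in the bin that starts at 250 bp. No bin had a median above 0.22 on HC1 or 0.66 on HC2. The mean score was higher over the 150 bp after the position than over the 150 bp before it at 113 of 117 members with probes on both sides on Stringent, or 96.6%, against 94.5% of all positions. On HC1 it was 90 members, or 76.9%, against 70.3%, and on HC2 it was 88, or 75.2%, against 74.6%. The regions on Stringent had a median length of 365 bp, and their 5′ edge lay at a median of -45 bp with quartiles of -54 and -35 bp. Median lengths were 175 bp on HC1 and 219 bp on HC2. The median 5′ edge was -29 bp on both of these arrays. Its quartiles were -62 and 5 bp on HC1, and -54.5 and 18.75 bp on HC2.

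**Figure D2:**
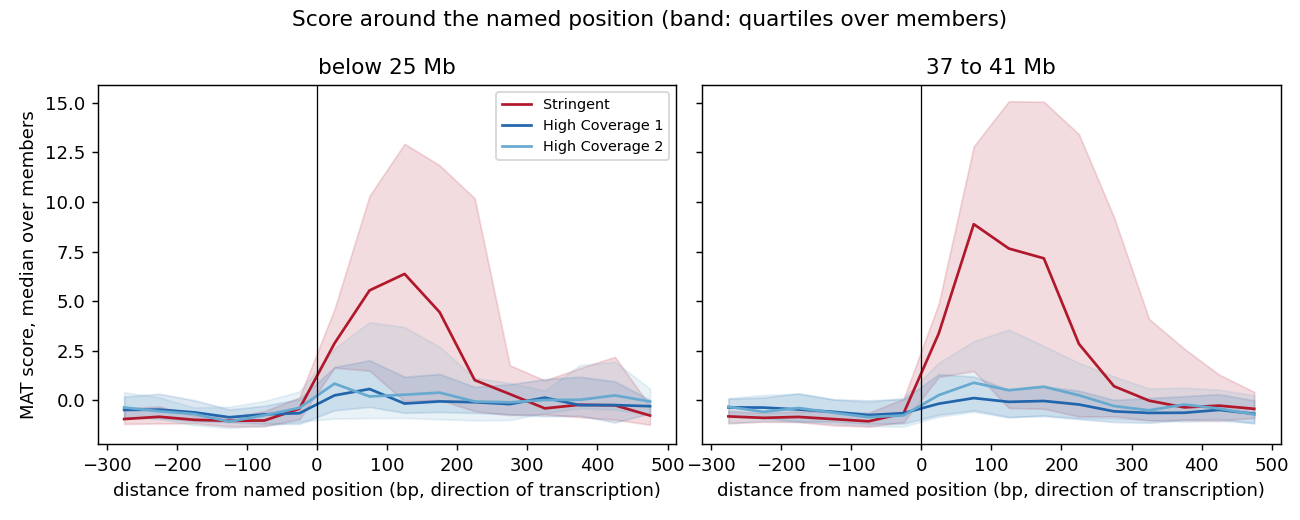
Median MAT score over members in 50 bp bins by distance from the named position, in the direction of transcription, below 25 Mb (left) and at 37 to 41 Mb (right), with quartile bands. Stringent rises after the position in both clusters, to 6.37 below 25 Mb and 8.88 at 37 to 41 Mb, while the High Coverage medians stay under 1.

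The members that stood high on every array were found in both clusters. Below 25 Mb the 5 whose lowest percentile was highest were Olfr860, Olfr872, Olfr869, Olfr847 and Olfr845. Olfr860, of subfamily MOR146, scored 20.3 on Stringent, 8.91 on HC1 and 19.5 on HC2. Olfr872 scored 18.8 on Stringent, 7.24 on HC1 and 17.5 on HC2. Olfr869, like Olfr872 of subfamily MOR145, scored 18.2, 7.14 and 15.7 on the arrays in the same order. Olfr847 scored 20.7 on Stringent but 4.87 and 5.74 on the High Coverage arrays, and Olfr845 scored 12.4, 3.91 and 4.74. At 37 to 41 Mb the 5 were Olfr969, Olfr972, Olfr912, Olfr144 and Olfr984. Olfr969, of subfamily MOR171, had the highest Stringent score of all members, 22.9, with 9.58 on HC1 and 12.7 on HC2. Olfr972 scored 16.1, 8.09 and 18.2. Olfr912 scored 19.8, 10.3 and 7.40. Olfr144 scored 17.3, 8.10 and 7.34, and Olfr984 scored 18.1, 5.73 and 5.49. For all of these receptors the 3 scores lay above the authors' thresholds.

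Set against each other member by member, Stringent stood above both High Coverage arrays in score at 85 of 122 members, or 69.7%, against 60.1% of all scored positions. It stood below both at 27, or 22.1%, against 29.4%. In percentiles, 11 members exceeded their mean High Coverage percentile on Stringent by more than 34.3 points, or 9.02%, against 8.8% of all scored positions. HC1 and HC2 themselves differ by less than this limit at 95% of scored positions. None of the members stood lower by as much, against 1.2% of all scored positions. The share is therefore near that of the series as a whole. The count depended on the scale, being 35 with the mean score in the window and 73 with scores in units of each array's median absolute deviation (MAD). Below 25 Mb the members with the highest differences were Olfr873, Olfr850, Olfr853 and Olfr870. Olfr873 stood at the 95.2 percentile on Stringent and at 56.3 and 33.5 on HC1 and HC2. Olfr850 stood at 97.4 on Stringent and at 40.3 and 61.4, and Olfr853 at 96.3 and at 48.2 and 54.8. Olfr870, at 95.3 on Stringent and 65.1 and 68.0 on High Coverage, did not reach the limit. At 37 to 41 Mb the highest were Olfr898, Olfr963, Olfr148 and Olfr975. Olfr898 scored 6.09 on Stringent but -1.21 on HC1 and -1.14 on HC2, which is the 95.3 percentile against 17.0 and 23.6. Olfr963 scored 10.9 on Stringent and -0.771 and -0.548 on High Coverage. Olfr148 scored 16.5, 0.421 and -1.29, and Olfr975 scored 5.66, -0.191 and -0.831. Each of these had a called region on Stringent and on neither High Coverage array.

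In the opposite order, the gaps in percentile were smaller. With no member below the 77.7 percentile on Stringent, they could only stay within the limit. Below 25 Mb, Olfr18 scored 1.01 on Stringent and 5.10 and 5.96 on High Coverage, and Olfr837 scored 1.57 on Stringent and 4.603 and 5.61. At 37 to 41 Mb, Olfr891 scored 0.00516 on Stringent, with no region there, and 11.6 on HC1 and 12.1 on HC2. Its HC1 score was the highest of all members on that array. Olfr883 scored -0.207 on Stringent, the lowest of all members, and 2.69 and 3.64 on High Coverage. All 4 had a called region on both High Coverage arrays and none on Stringent, as had 12 members in total, or 9.84%, against 9.77% of all positions.

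**Figure D3:**
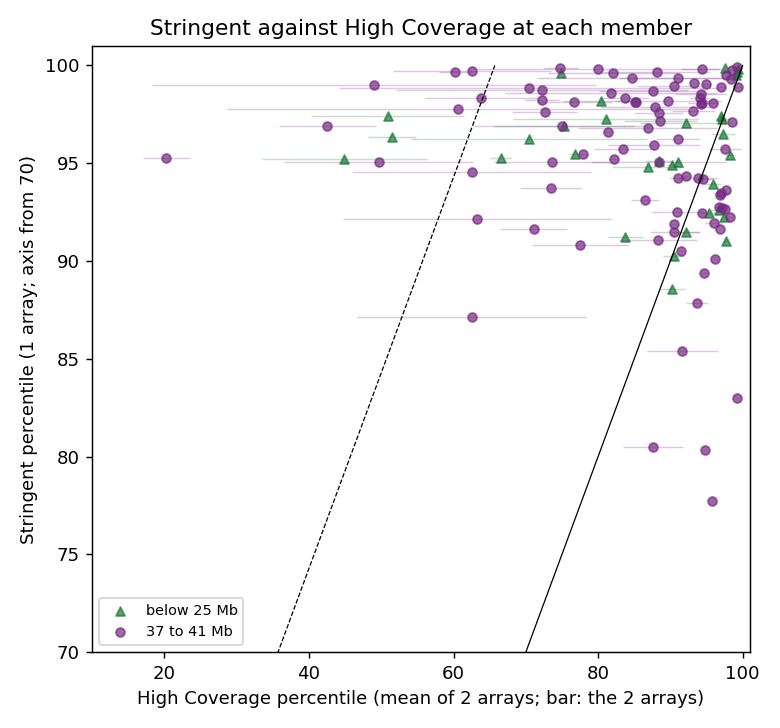
Percentile of each member on Stringent (1 array, axis from 70) against the mean percentile of the 2 High Coverage arrays, with a bar between these arrays. The solid line marks equal percentiles and the dashed line a Stringent excess of 34.3 points, beyond which 11 members lie.

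The High Coverage arrays differed from each other at some members as much as Stringent differed from them. Their median absolute difference was 3.91 percentile points over the members, against 4.33 over all scored positions. By more than 34.3 points, the limit set so that 95% of all scored positions lie within it, 5 members differed. Olfr983 stood at the 92.5 percentile on HC1 and at 28.7 on HC2, and Olfr148 at 79.7 and 18.3. Olfr923 was the other way round, at 44.1 on HC1 and 96.7 on HC2. The remaining 2 were Olfr894 and Olfr974. Below 25 Mb no member passed the limit, and the widest gaps were at Olfr843, at 86.8 and 54.1, and at Olfr851, at 94.0 and 68.3. By the input names in the file headers, HC1 is female and HC2 male, so array and sex cannot be told apart. Across the 122 scores, the High Coverage arrays had Pearson's r = 0.680 and Spearman's rho = 0.647. Stringent had r = 0.0207 and rho = -0.156 with HC1, and r = 0.242 and rho = 0.123 with HC2. These are descriptions across positions that share arrays and probes.

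The share of members with a region was not separated between the clusters on any array. On Stringent 24 of 32 members below 25 Mb had a region, or 75% (56.6 to 88.5), against 65 of 90 at 37 to 41 Mb, or 72.2% (61.8 to 81.1). The difference was 2.78 points, with a Newcombe interval of -16.2 to 18.2. On HC1 the shares were 43.8% below 25 Mb and 34.4% at 37 to 41 Mb, a difference of 9.31 points (-9.36 to 28.5). On HC2 they were 40.6% and 54.4%, a difference of -13.8 points (-31.9 to 6.14). All 3 intervals include 0, and the sign was not the same on both High Coverage arrays. The Newcombe intervals too cover counting error over members only, and they treat neighbouring members that share sequence as independent. On Stringent the sign turned with windows of 500 bp to each side, where the difference was -0.764 points. Median percentiles on Stringent were 95.5 below 25 Mb and 96.7 at 37 to 41 Mb. They were 92.0 and 90.4 on HC1, and 90.5 and 93.5 on HC2. The HC2 order also turned, with a difference of 4.45 points within 50 bp. Of the members below 25 Mb, 8 of 32 had a region on all 3 arrays, against 16 of 90 at 37 to 41 Mb. Stringent with HC2 but not HC1 occurred at 2 of 32 and at 22 of 90.

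By subfamily the clusters were separate. The 119 members with a single MOR subfamily fell into 14 subfamilies below 25 Mb and 14 at 37 to 41 Mb, with 0 in common. The cluster below 25 Mb held small subfamilies, the largest being MOR145 with 6 members and MOR146 with 4. At 37 to 41 Mb, MOR171 alone had 32 members. All 4 MOR146 receptors had a Stringent region, against 61.7% of all positions. Their median score was 9.01 on Stringent, 2.84 on HC1 and 9.91 on HC2. Of the 6 MOR145 receptors, 4 had a region on Stringent, 5 on HC1 and 4 on HC2, against 61.7%, 36.4% and 43.6% of all positions. Their medians were 7.82, 3.86 and 8.58. HC2 thus had the highest median in both subfamilies.

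Stringent counts differed between the subfamilies of the other cluster. Over all positions, 61.7% had a Stringent region, 36.4% an HC1 region and 43.6% an HC2 region. A region on all 3 arrays was present at 17.3% and on none at 18.8%. Stringent scored above both other arrays at 60.1% of scored positions and below both at 29.4%. MOR171 had a Stringent region at 26 of 32 members, with a median score of 13.0 on Stringent, 1.495 on HC1 and 2.55 on HC2, and Stringent was above both other arrays at 27. MOR224 had one at 8 of 9 and MOR165 at 7 of 8, with Stringent medians of 10.9 and 8.97. The 4 MOR161 receptors had a Stringent median of 15.9 and no HC1 region. MOR162 had a region at 5 of 10 members on each of the 3 arrays and on all 3 at 0 of them. Its medians were 2.47 on Stringent, 1.73 on HC1 and 2.27 on HC2, and Stringent was above both other arrays at 5 members and below both at 5. Of 5 MOR223 receptors, 1 had a Stringent region and 3 had none on any array. The values by subfamily are counts and medians of genes that lie next to each other and share sequence, and no test between subfamilies was made.

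**Figure D4:**
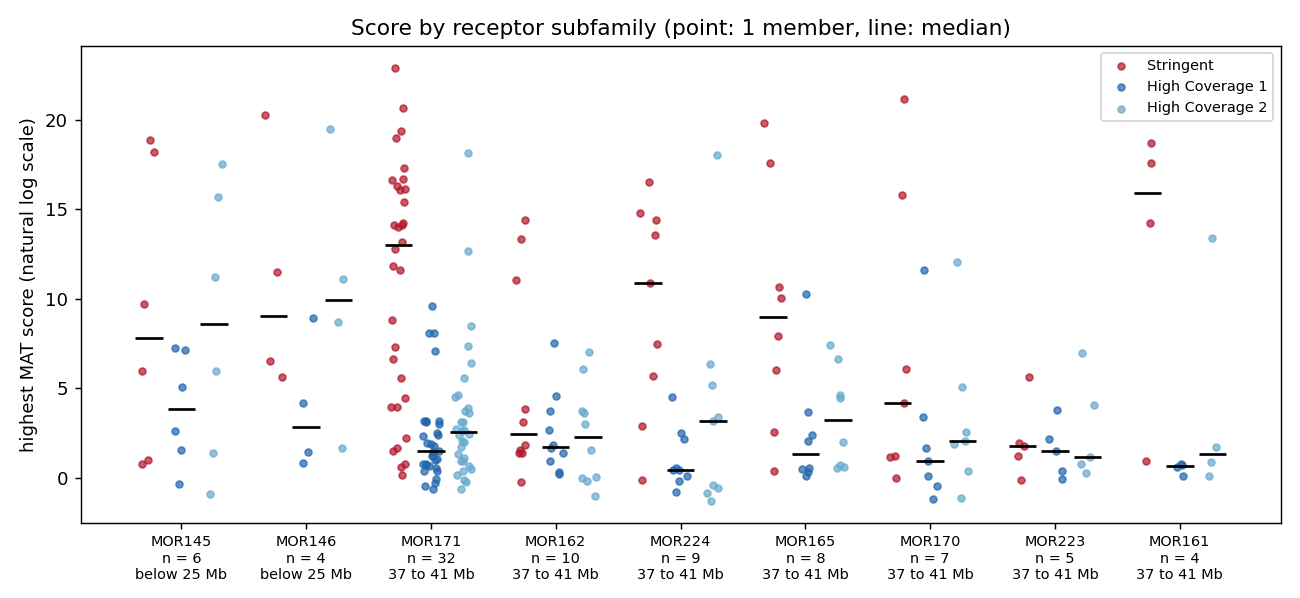
Highest MAT score (natural log scale) of each member by subfamily, for the 9 subfamilies with 4 or more members, on Stringent, High Coverage 1 and High Coverage 2. Lines are medians, which on Stringent run from 1.75 in MOR223 to 15.9 in MOR161.

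No Stringent region was present at 33 of 122 members, against 416 of all 1085 positions, and some of these 33 were neighbours. They formed 7 runs of 2 or more. Some runs arise wherever members without a region are scattered, and whether these are more than that was not tested. Runs were not counted over the series. The longest was Olfr883, Olfr884, Olfr885 and Olfr887, all of MOR162 and on the plus strand. These 4 scored between -0.207 and 1.85 on Stringent and between 2.69 and 7.504 on the High Coverage arrays, and each had a region on both. The next MOR162 receptor, Olfr888, scored 14.4 on Stringent and 0.189 and 0.0400 on High Coverage. Olfr978, Olfr979 and Olfr980 of MOR223 formed the other run of more than 2. Olfr978 scored -0.110 on Stringent, 1.52 on HC1 and 0.781 on HC2.

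The members whose percentiles were lowest over the arrays had called regions downstream, as had 94.3% of all members on Stringent. Below 25 Mb the lowest were Olfr828 and Olfr866, ranked by their highest percentile over the arrays. Olfr828 scored 1.08 on Stringent, 0.509 on HC1 and 1.04 on HC2 at its position. A Stringent region with a score of 26.5 began 3474 bp downstream of it. Olfr866 scored 0.791, 1.54 and 1.40 at its position, where HC1 alone had a called region, and its strongest downstream Stringent region scored 16.5. At 37 to 41 Mb, Olfr917 scored 0.305, -0.554 and 0.429 at its position and 19.0 in a Stringent region 2707 bp downstream. Olfr877 scored 0.946, 0.692 and 0.0802, and 14.1 in a Stringent region 1593 bp downstream.

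A called region beginning 500 to 10000 bp downstream, and before the next named position, was present on Stringent for 115 of 122 members, or 94.3%, against 88.3% of all positions. Upstream over the same distances it was 33 members, or 27.05%, against 33.3% of all positions. On HC1 a downstream region was present for 116 members and an upstream one for 50, or 95.1% and 40.98%, against 95.9% and 51.3% of all positions. On HC2 it was 108 and 54, or 88.5% and 44.3%, against 93.3% and 48.8%. These distances were chosen after the data had been seen. The strongest downstream Stringent region began at a median of 2458 bp, with quartiles of 1262 and 4017 bp, and its median score was 17.0. Over all positions the median was 3234 bp. Of the 33 members with no Stringent region at the position, 32 had one downstream, or 97.0%, against 77.2% of such positions in the whole series. The exception was Olfr986, the last member of the row. Of the 15 members with no region on any array, 14 had a downstream Stringent region, as had 94.3% of all members. The same share over all positions with no region was not counted. Of the 83 members with Stringent regions in both places, 65, or 78.3%, had a downstream region score above the score at the position. Among such positions in the whole series it was 89.0%. The score at the position is the highest probe score in its window, not the score of the called region there. Stringent signal ran on past that window, so these are unlike measures and do not show which region scored higher. Olfr869 and Olfr872, among the highest at their positions, were 2 of the 7 members with no downstream Stringent region.

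**Figure D5:**
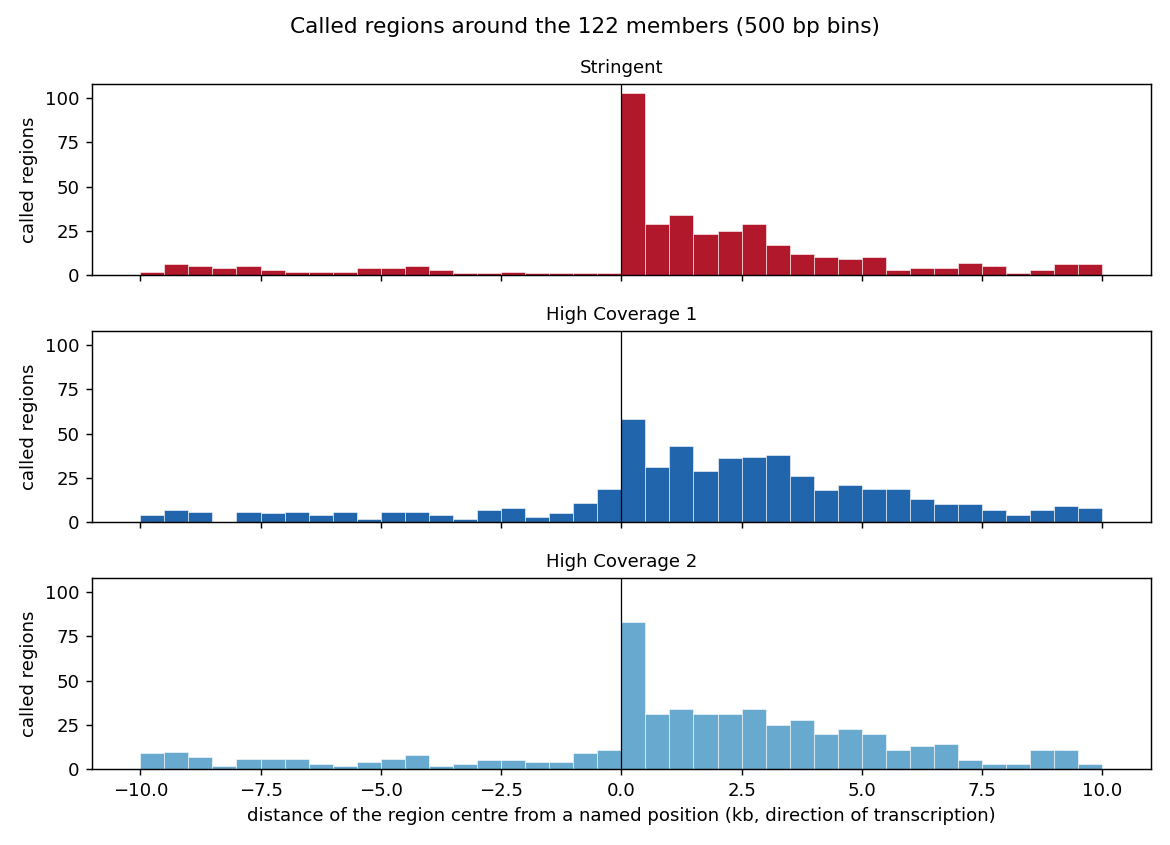
Called regions by the distance of their centre from each of the 122 members, in 500 bp bins in the direction of transcription, on Stringent, High Coverage 1 and High Coverage 2. The first bin downstream holds 103, 58 and 83 regions, and regions are denser downstream than upstream on each array.

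Receptors with symbols given before the family was numbered along the chromosomes made up 14 members, 4 below 25 Mb and 10 at 37 to 41 Mb. Of these, 10 had a Stringent region, 3 an HC1 region and 9 an HC2 region, while 61.7%, 36.4% and 43.6% of all positions had one. Olfr25 scored 21.1 on Stringent and 0.102 and 0.371 on HC1 and HC2, and Olfr146 scored 20.6, 1.47 and 5.58. Olfr27 scored 15.4, -0.0680 and 4.51, Olfr147 scored 14.8, 0.461 and 1.13, and Olfr44 scored 14.003, 1.90 and 3.09. In the cluster below 25 Mb, Olfr58 scored 11.5 on Stringent, 0.816 on HC1 and 8.72 on HC2. Olfr39 scored 6.71, 0.245 and 0.399, and Olfr77 scored 5.71, 1.29 and 1.07. Of the 4 without a Stringent region, Olfr18 is described above. Olfr149 scored -0.115 on Stringent and 2.16 and 3.17 on High Coverage. Olfr143 and Olfr26 had no region on any array, with Stringent scores of 1.18 and 0.614.

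Olfr923 and Olfr983 have been reported to respond to acetophenone, an odorant used in studies of learned odor responses. Both had a Stringent region, with scores of 16.0 for Olfr923 and 13.3 for Olfr983. On High Coverage they were opposite, with -0.607 on HC1 and 4.74 on HC2 for Olfr923, against 1.65 on HC1 and -1.01 on HC2 for Olfr983. Their strongest downstream Stringent regions scored 17.0 at 1152 bp for Olfr923 and 17.7 at 578 bp for Olfr983.

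Neighbouring members on opposite strands formed 38 pairs, of which the 2 closest in each cluster are given here. Olfr850 and Olfr851, 14976 bp apart and pointing away from each other, scored 12.4 and 12.1 on Stringent. Olfr845 and Olfr846, 28514 bp apart and pointing at each other, scored 12.4 and 1.80 on Stringent, and both had regions on both High Coverage arrays. Olfr978 and Olfr979, 9493 bp apart and pointing at each other, had no region on any array. Olfr149 and Olfr965, 10032 bp apart and pointing away from each other, scored -0.115 and 0.154 on Stringent. Olfr149 had a region on HC2 alone and Olfr965 on HC1 alone.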

How the data were processed

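The deposited score files hold a MAT score per probe position, computed by the authors for each array alone, without a control (bandwidth 50, gaps up to 30, 5 probes or more), per the file headers. Per the file headers, the authors called regions per array and list their false discovery rate as 0 percent. The submitters' processing notes give mm9 as the build. Another probe map is named for Stringent than for High Coverage, per the file headers, and the 2313448 positions were the same.

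A score of exactly 0 on all 3 arrays was read as no score, which left 2188086 probes. Members were found by name and chromosome in the deposited table of promoter positions. Their highest score within 100 bp was ranked among all scored probes of the array. A region counted from an overlap of 1 bp. The members, lists and named genes were chosen with earlier results of these data known. In each cluster the named genes were the 5 highest on all arrays, the 4 members with the greatest excess of Stringent over High Coverage and the 2 with the least, the 2 widest gaps between the High Coverage arrays, the 2 lowest on all arrays and the 2 closest opposite-strand pairs. Symbols numbered up to Olfr159, Olfr923 and Olfr983 were added. The rule on near-identical proteins was not applied, since protein sequences were not used here. Subfamilies, runs, downstream regions and the genes named with them were chosen after the values were seen. Probe sequences were not used, so signal that related receptors share cannot be separated. RefSeq names and windows are of GRCm38.p6. The steps were tested on simulated data. The tools were statsmodels 0.14.6 and scipy 1.17.1 for intervals, Biopython 1.88 for alignment, and pandas 2.3.3, numpy 2.4.6 and matplotlib 3.10.9 in Python 3.11.15.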

Additional observations from a re-analysis of the deposited data

Results flagged for a closer look

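Rows on chromosome 9 that the choice of members left out also carried Stringent regions, so the named receptors do not hold all the signal at named positions there. The 3 unannotated pseudogenes scored 14.4 (number 14 of the table, below 25 Mb), 15.3 (number 47) and 5.97 (number 15, both at 37 to 41 Mb) on Stringent. Olfr874 and Olfr145 each have 2 positions and had a Stringent region at 1 of them. At its plus-strand position Olfr874 scored 19.2 on Stringent, 4.99 on HC1 and 4.72 on HC2, with a region on all 3. Olfr145 scored 7.54 on Stringent at the position with a region.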

How the results depend on the processing

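No paired analysis was possible because Stringent is a single array with no replicate number. Of 105 values recomputed under another setting, 65 kept their direction and stayed close to the value given in the report. Close means within its interval or spread or, for counts of members, within a set factor of it. Of the rest, 30 moved and 4 changed sign. The other 6 are in MAD units and cannot be set against percentiles. The cause of these moves was not tested, except where a wider or narrower window by itself takes in more or less. At the position itself the region share was 23.0% on HC1 and 32.0% on HC2, and 11 members had a region on all arrays. With windows of 500 bp to each side these shares became 52.5% and 60.7%, 39 members had a region on all arrays and 9 on none, and the cluster difference on Stringent was -0.764 points. With as many regions as Stringent has, the High Coverage shares were 27.05% and 40.2%. At a like cutoff, the 95th percentile, chosen after seeing the data, the share was 63.1% on Stringent and 40.2% on HC2. Leaving out 1 High Coverage array, 29 to 48 members had a region on the remaining arrays, 48 of them without HC1, and 17 to 19 had none. Median percentiles on Stringent, HC1 and HC2 were 94.98, 84.3 and 86.5 within 50 bp, 97.6, 95.6 and 95.8 within 500 bp, and 93.4, 63.6 and 69.0 for the mean score. On a median and MAD scale the medians were 22.5, 3.36 and 3.95 units. With at least 20 probes the HC2 median was 93.5. The cluster difference in medians, below 25 Mb minus 37 to 41 Mb, became 6.45 on HC1 and 4.45 on HC2 within 50 bp, 0.784 on HC2 within 500 bp, and 9.07 and 2.65 for the mean score. On the median and MAD scale it was -8.67, 0.418 and -1.19 units on the arrays in order. Members higher on Stringent numbered 35 for the mean score and 73 on the median and MAD scale, against 11 in the report, and those lower numbered 3 and 1. Within 50 bp and within 500 bp 1 member was lower. Stringent has the smallest MAD of scores, 0.428, against 0.583 and 0.656, so a like score stands higher on that scale. Without 1 High Coverage array, 12 members were higher on Stringent in either case and 0 lower.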
